A study of Mus musculus with 10 samples.

Results

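Genes of insulin and insulin-like growth factor (IGF) signalling were followed in the hippocampus of old mice fed normally or calorie restricted. The group was set as 10 genes: the ligands Igf1 and Igf2, the receptors Igf1r, Igf2r and Insr, the receptor substrate Irs1, and the IGF binding proteins Igfbp2, Igfbp4, Igfbp5 and Igfbp6. Members were found as every probe set that the array's annotation gives to only 1 of these genes. This gave 13 of the 12488 probe sets and 9 of the 8251 genes with such a probe set. Igfbp5 was dropped, because its only probe set is shared with another gene. Total RNA came from male C57BL/6 mice aged 30 months. Of these, 5 ate the control diet and 5 were kept calorie restricted (CR) long term, with 1 mouse per Affymetrix array and no pooling. How strongly and from what age food was restricted is not stated in the labels, and the mice carry no stated allele or drug treatment. In the whole hippocampus, fewer cells of a type and less RNA per cell cannot be told apart.

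IGF1, IGF2 and insulin are related hormones that act through the tyrosine kinase receptors encoded by Igf1r and Insr. Receptor activation recruits substrate proteins such as IRS1 and then the PI3K and Akt and the Ras and MAP kinase branches. IGF2R is a different kind of receptor, which carries IGF2 to lysosomes for breakdown, and IGF binding proteins hold the ligands in the extracellular fluid and set how much is free. In the adult brain, Igf2 and Igfbp2 transcripts are known to be rich in choroid plexus and meninges, and Igfbp2 also in astrocytes, while Igf1 is made by some neurons and by microglia.

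Igfbp2 was lower and Igfbp6 higher in the hippocampus of CR mice, both binding proteins. Of the 13 probe sets, 8 were bright enough to be tested, and among these Igfbp2 fell, Igfbp6 rose and 6 did not pass, at a Benjamini-Hochberg adjusted p under 0.05 in limma. Over the whole array, 883 of 7453 tested probe sets passed, or 11.8%, with 4.11% higher and 7.74% lower in CR mice, against 1 higher and 1 lower among these 8, too few for a share of them to be read against the background. The median log2 change of the 8 was -0.28, against -0.15 over all tested probe sets, and 7 of the 8 had a negative change, against 60.6% of all tested. The balance of directions over the array depended on scaling: 306 higher and 577 lower as deposited, 322 and 279 under quantile normalization (8.06% in all), and 575 and 266 with each array centred on its median (11.3%). Igfbp2 and Igfbp6 passed under both. Changes are given as CR minus control on the log2 scale with their standard error (SE), and where it matters also relative to the median of -0.15. The tests are of the change against 0.

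The stretch before the first annotated start of each gene that passed is shown first, as sequence context for the 2 members with a diet call. RefSeq start sites were found for 8 of the 9 members, and Insr had no entry. Each stretch is the 250 bases before the first annotated start, 5′ to 3′ on the gene's strand, in build GRCm38.p6. The Igfbp2 stretch lies at chr1:72824230-72824479 and the Igfbp6 stretch at chr15:102143936-102144185, both on the plus strand. Capitals mark GC boxes, searched as GGGCGG on both strands.
Igfbp2: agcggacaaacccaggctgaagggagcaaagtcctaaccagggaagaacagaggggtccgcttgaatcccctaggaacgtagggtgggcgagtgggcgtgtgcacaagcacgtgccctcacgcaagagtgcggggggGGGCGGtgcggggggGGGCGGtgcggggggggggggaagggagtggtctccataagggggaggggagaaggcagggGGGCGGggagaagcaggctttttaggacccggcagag
Igfbp6: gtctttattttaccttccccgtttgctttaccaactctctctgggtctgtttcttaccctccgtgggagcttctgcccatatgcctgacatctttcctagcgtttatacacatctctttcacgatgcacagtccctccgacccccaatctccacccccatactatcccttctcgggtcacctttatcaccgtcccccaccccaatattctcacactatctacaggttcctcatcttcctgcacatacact
The Igfbp2 stretch held 3 GC boxes and had 67.2% G and C, while the Igfbp6 stretch held 0 and had 49.6%. Igfbp2 has another annotated start, whose stretch at chr1:72825137-72825386, not printed, held 0 GC boxes and had 56.4%. The difference from Igfbp6 in GC boxes thus holds for the first Igfbp2 start only. A GC box was present in 32.7% of all 32851 promoters of that length, whose median G and C content was 52.4%. The TATA box letters TATAAA, searched on both strands, matched in the Igfbp6 stretch only on the strand opposite to the gene. Such a match is not a TATA box facing the start. The Igfbp2 stretch had no match, and 12.4% of all promoters had one on either strand. A match describes the letters in this window and says nothing of use of the promoter in these mice.

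Igfbp2 encodes a secreted binding protein for both IGFs. Its intensity was 906, 970, 1610, 966 and 977 in control replicates 1 to 5 and 437, 310, 342, 838 and 265 in CR replicates 1 to 5. All 5 CR arrays lay below all 5 control arrays, with CR replicate 4 just under the lowest control array. The groups did not overlap in 14.3% of all tested probe sets. Mean intensity was 1086 ± 294 in control and 438 ± 232 in CR mice (SD, n = 5 each). Igfbp2 fell by 1.40 on the log2 scale (SE 0.30, limma adjusted p = 0.0175), a 2.65-fold difference with a 95% interval from 1.69 to 4.15. Relative to the median of all tested probe sets the change was -1.25. It passed when any single array was left out, with values from -1.67 to -1.25 and limma adjusted p from 0.00691 to 0.0472. It also passed without CR replicates 3 and 5 together, at -1.13 (limma adjusted p = 0.0374).

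Igfbp6, a binding protein with a preference for IGF2, went the other way and with a much wider spread in control mice. Its intensity was 127.5, 167, 496, 714 and 74.6 in control replicates 1 to 5 and 1697, 1234, 1067, 671 and 1004 in CR replicates 1 to 5. The diets overlapped by 1 pair of arrays: CR replicate 4, the lowest of its diet, was below control replicate 4, the highest of its own. Control arrays differed by up to 9.57-fold and had an SD of 1.37 on the log2 scale, larger than that of 99.4% of tested probe sets, while CR arrays differed by up to 2.53-fold. Igfbp6 rose by 2.28 on the log2 scale (SE 0.54, limma adjusted p = 0.0234), or 4.85-fold with a 95% interval from 2.14 to 10.96. Relative to the median of all tested probe sets the change was 2.43. With single arrays left out it was 1.88 to 2.70, and it no longer passed without control replicate 1, control replicate 2 or CR replicate 3 (limma adjusted p = 0.0571, 0.0608 and 0.0517). The change was 2.07, 2.17 and 2.28 there, and calls over the whole array were 421, 253 and 349, against 883 with all arrays. Without CR replicates 3 and 5 together Igfbp6 passed at 2.32 (limma adjusted p = 0.0452), where 10.5% of all probe sets did.

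**Figure D1:**
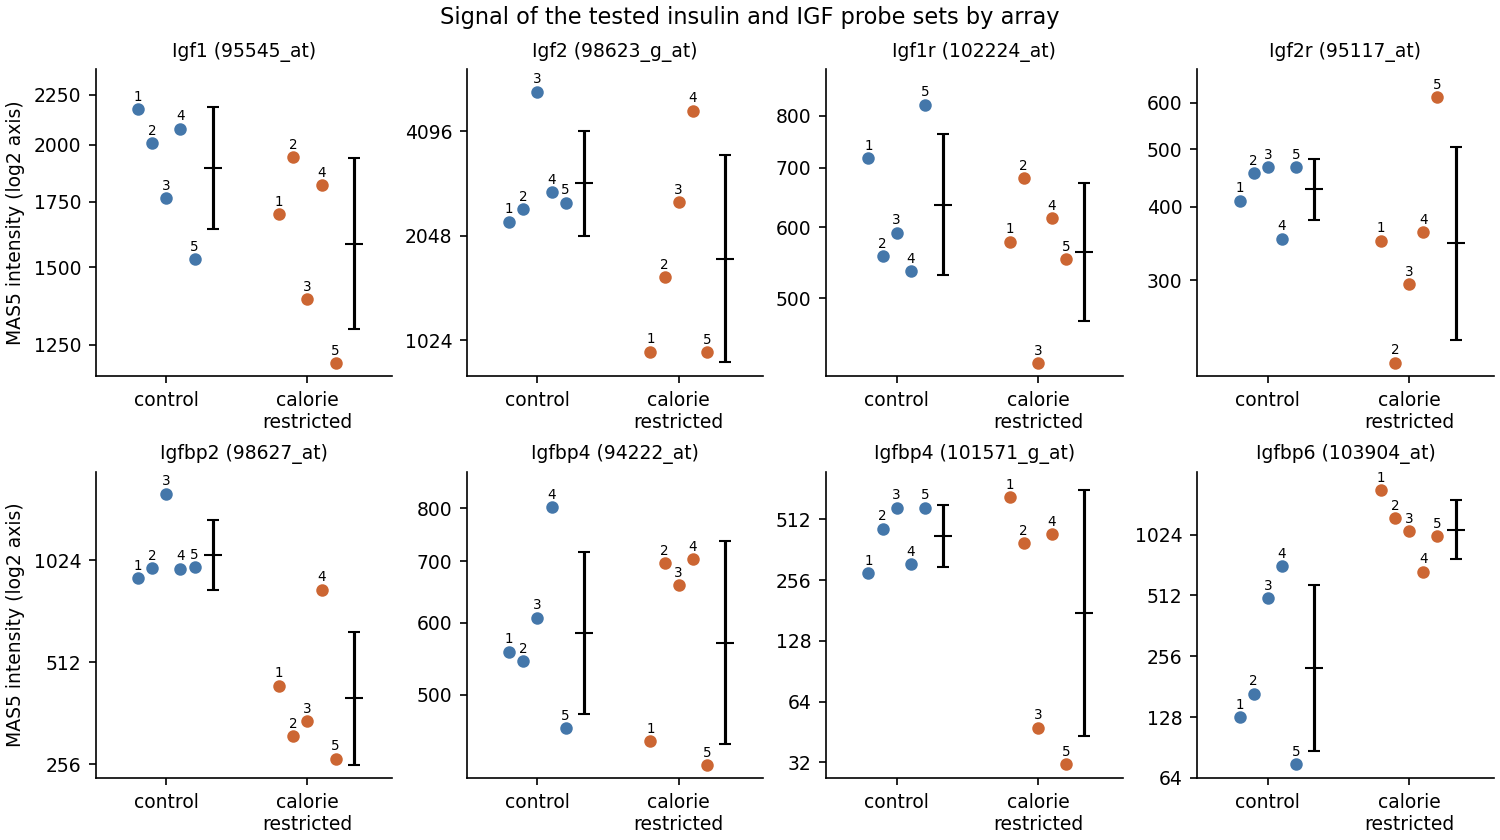
MAS5 intensity on a log2 axis for the 8 tested probe sets, with 1 numbered point per array (replicate number) and, beside each diet, the mean of log2 signals with its SD (n = 5). Igfbp2 is lower in all 5 calorie restricted arrays than in any control array, Igfbp6 is spread from 74.6 to 714 in control arrays, and Igfbp4 probe set 101571_g_at is at 47.6 and 31.2 in calorie restricted replicates 3 and 5.

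Igfbp4, which encodes a binding protein known for holding back IGF action, had 3 probe sets that did not behave alike. The brightest, 94222_at, had 558, 545, 607, 802 and 460 in control replicates 1 to 5 and 445, 697, 659, 703 and 419 in CR replicates 1 to 5. These ranges lie nearly on top of each other, and the log2 change was -0.035 (SE 0.22, limma adjusted p = 0.929), with a 95% interval from -0.51 to 0.44. Its sign turned to 0.13 under quantile normalization and to 0.18 with arrays centred on their median. Probe set 101571_g_at had 277, 461, 587, 307 and 586 in control and 660, 391, 47.6, 432 and 31.2 in CR mice. CR replicates 1, 2 and 4 lay within or above the control range, and CR replicates 3 and 5 far below it. Its log2 change was -1.27 (SE 0.77, limma adjusted p = 0.276), and 0.19 without CR replicates 3 and 5. Those 2 arrays also had the largest 3′ to 5′ difference, a sign of broken RNA; its part in this value was not tested. The third, 101570_at, was below the filter on signal.

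Igf1 had 2 probe sets, of which 95545_at was tested. It had 2175, 2007, 1764, 2077 and 1529 in control replicates 1 to 5 and 1699, 1944, 1392, 1818 and 1197 in CR replicates 1 to 5. Control replicates 3 and 5 lay within the CR range and the lowest CR arrays were replicates 5 and 3. The log2 change was -0.26 (SE 0.18, limma adjusted p = 0.340), with a 95% interval from -0.65 to 0.13, and it was -0.060 without CR replicates 3 and 5 and -0.042 with arrays centred on their median. It did not pass, which does not show that the level is the same in both diets.

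Igf2 was measured by 98623_g_at, whose g marks probes that can match several related transcripts. It had 2248, 2441, 5321, 2740 and 2549 in control replicates 1 to 5 and 951, 1558, 2558, 4691 and 946 in CR replicates 1 to 5. The CR arrays were spread out: CR replicates 1, 2 and 5 lay below every control array, CR replicate 3 among the control arrays, and CR replicate 4 above 4 of the 5. The log2 change was -0.72 (SE 0.42, limma adjusted p = 0.256), with a 95% interval from -1.63 to 0.19. Without CR replicate 4 it was -1.07 (limma adjusted p = 0.0748), and without control replicate 3, the highest control array, -0.50.

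**Figure D2:**
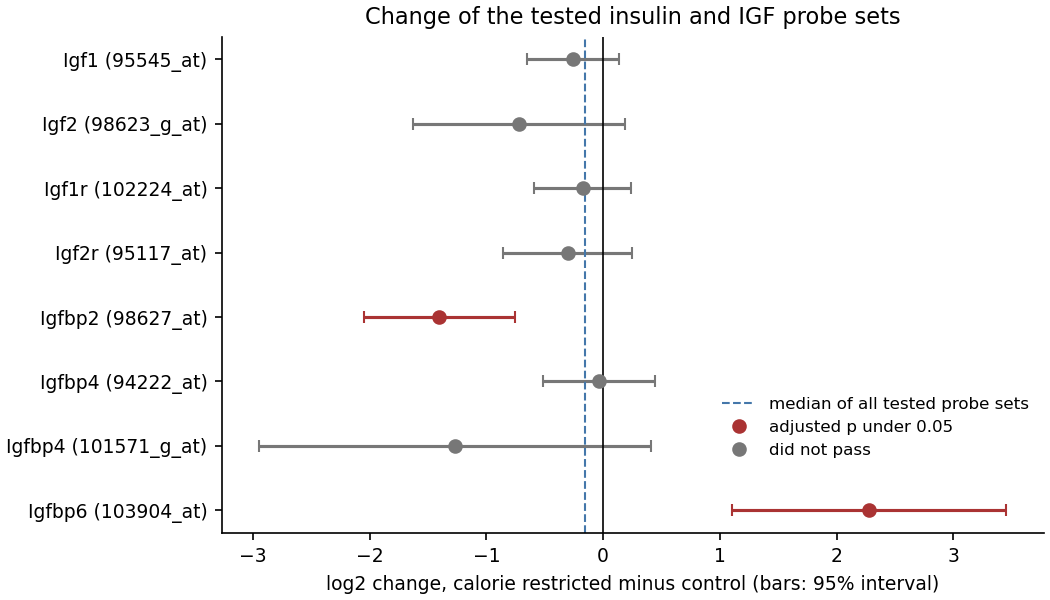
Log2 change of each tested probe set between calorie restricted and control arrays, with its 95% interval from limma; the dashed line is the median of all tested probe sets, -0.15. The intervals of Igfbp2 and Igfbp6 lie on opposite sides of 0, and those of the other 6 probe sets include 0.

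Of the receptors, Igf1r, the signalling receptor for both IGFs, had 717, 557, 592, 536 and 823 in control and 578, 681, 423, 615 and 553 in CR replicates 1 to 5. The diets overlapped over most of their range, and the log2 change of -0.18 (SE 0.19, limma adjusted p = 0.548) was close to the median of all tested probe sets. Its 95% interval ran from -0.59 to 0.24, and the change was 0.039 with arrays centred on their median. Igf2r had 410, 455, 466, 353 and 467 in control and 350, 218, 296, 362 and 613 in CR replicates 1 to 5. CR replicates 1, 2 and 3 lay below every control array, CR replicate 4 lay within the control range and CR replicate 5 was the highest of all 10. The log2 change of Igf2r was -0.30 (SE 0.26, limma adjusted p = 0.431), and it varied with the processing. It was -0.082 under quantile normalization, -0.088 with arrays centred on their median, -0.66 with RNA quality as a covariate and -0.51 without CR replicate 5, and it passed in none of these.

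The other 5 probe sets had a mean log2 signal under the filter, whose lowest tested mean was 6.85, or an intensity of 115, and were not tested; no detection call was used, and single arrays of 98622_at and 101570_at were above that level. Insr, the insulin receptor, had 28.8 to 68.8 in control and 9.20 to 49.9 in CR mice. Irs1, the docking protein of both receptors, had 4.71 to 35.8 in control and 4.45 to 105 in CR mice. The second Igf1 probe set, 95546_g_at, had 17.6 to 35.3 in control and at most 57.2 in CR mice, and the second of Igf2, 98622_at, 9.86 to 120. In a fit that kept all 12422 probe sets, where 6.36% passed, the limma adjusted p of these 5 ran from 0.186 to 0.973. Igfbp2 and Igfbp6 passed in that fit too.

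RNA and array quality moved with diet and so with every value above. The log2 difference between the 3′ and 5′ control probe sets of Gapdh and Actb, which grows as RNA is broken, averaged -0.12 to 0.45 in control arrays and was 0.79, 0.78, 5.20, 1.52 and 6.11 in CR replicates 1 to 5 (exact permutation p = 0.00794, adjusted p = 0.0291 over 11 measures). Bacterial spike-in signal was also higher in CR arrays without overlap (exact permutation p = 0.00794, adjusted p = 0.0291), and 0.00794 is the smallest p that 5 against 5 arrays can give. With RNA quality as a covariate, where 4.47% of all probe sets passed, Igfbp2 had -1.04 and Igfbp6 2.53, and neither passed (limma adjusted p = 0.0932 and 0.0544). With spike-in signal added, limma called 0% of the 7453 probe sets, and 907 had an unadjusted p under 0.05. In that fit Igfbp2 turned to 0.40 with an SE of 0.50 and Igfbp6 had 4.23 with an SE of 1.28. Of 9 markers of hippocampal principal neurons with a probe set, 7 were above the filter, among them Camk2a, Neurod6, Wfs1 and Calb1, while Prox1, which marks dentate granule cells, was below it. Camk2a had a CR mean below the lowest tested mean and entered the test through its control arrays. Its change was -2.69 (SE 1.10, limma adjusted p = 0.119).

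**Figure D3:**
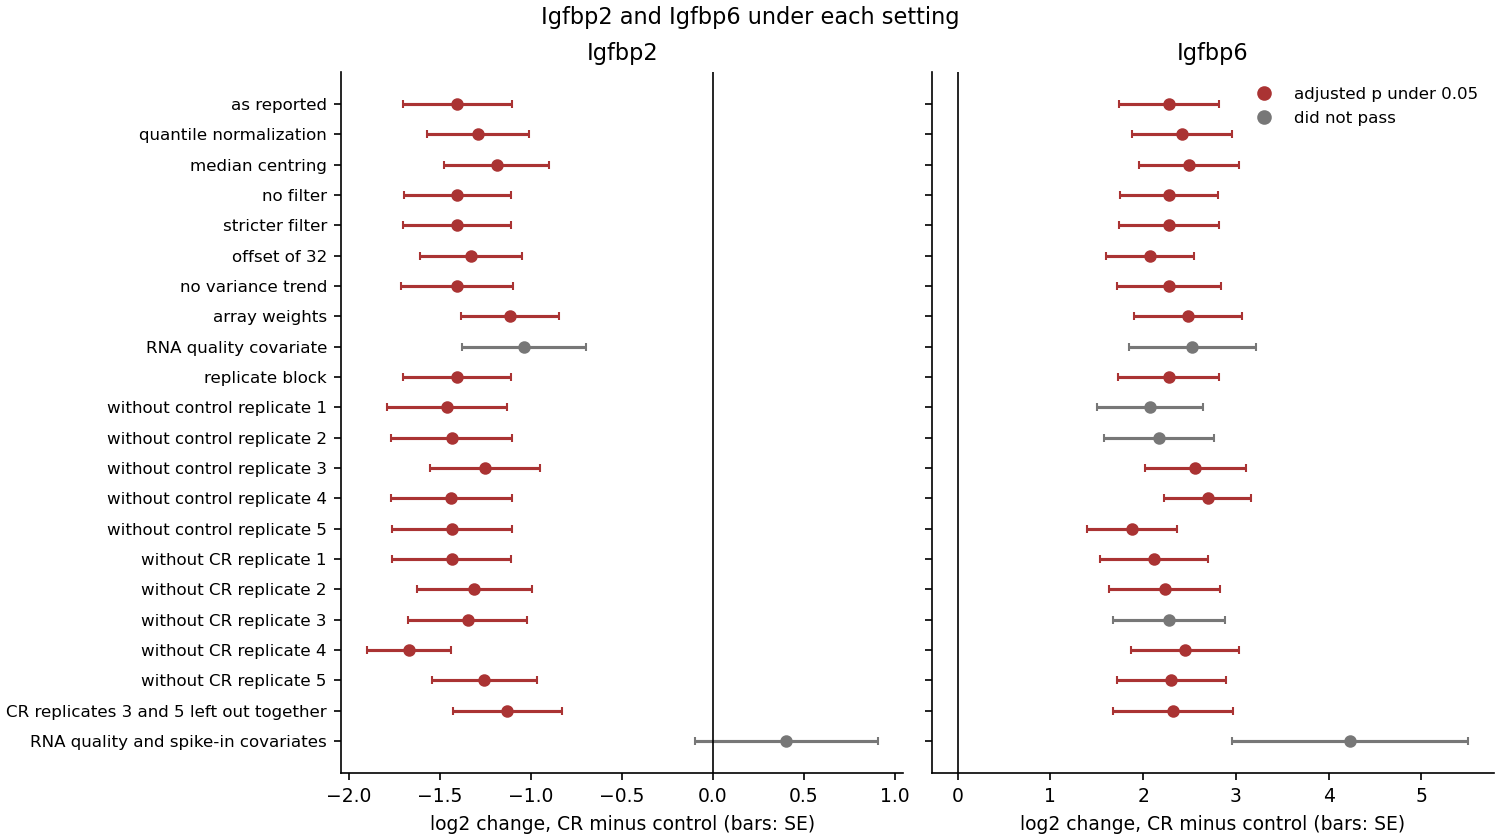
Log2 change of Igfbp2 and Igfbp6 in calorie restricted against control arrays, with its SE under each way of processing or set of arrays, red where the limma adjusted p was under 0.05. Igfbp2 did not pass with RNA quality as a covariate and turned to 0.40 with spike-in signal added; Igfbp6 stayed above 0 in all settings drawn and did not pass in 5 of them.

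Choroid plexus is a tissue where Igfbp2 and Igf2 are known to be made, and its markers were examined together with those of the ependyma. Of 9 such genes with a probe set 6 were tested, all 6 had a negative change, 2 fell (Folr1 and Foxj1) and 4 did not pass, with a median of -1.25. Neither call held once RNA quality entered the fit (limma adjusted p = 0.111 for Folr1 and 0.210 for Foxj1) or without CR replicates 3 and 5, and Foxj1 did not pass under quantile normalization or centring either. With spike-in signal added, Folr1 had 0.010. Folr1, a folate receptor of choroid plexus, had 642, 583, 988, 397 and 569 in control and 190, 162, 191, 520 and 146 in CR replicates 1 to 5, and fell by 1.51 (SE 0.35, limma adjusted p = 0.0219). In both diets the array with the highest Folr1 was also that with the highest Igfbp2 and the highest Igf2, control replicate 3 and CR replicate 4. Ttr, the transthyretin transcript and the brightest of the list by mean signal, had 2055 to 9016 in control mice and 526, 273, 5880, 13888 and 534 in CR replicates 1 to 5. Its log2 change was -2.04 (SE 0.96, limma adjusted p = 0.166). The list's summed intensity ran from 3770 to 12353 in control and from 1334 to 16102 in CR arrays (exact permutation p = 0.111, adjusted p = 0.175 over 11 measures). Ttr made up 13888 of the highest sum, in CR replicate 4, and 273 of the lowest, in CR replicate 2. Within diets, Igfbp2 had a Pearson's r of 0.66 with the list's sum over the 10 arrays and 0.75 with the sum of endothelial markers. With the sum of pericyte and smooth muscle markers the r was 0.55, and with that of principal neuron markers -0.60, all given as a description. Aqp1, Cldn2 and Slc4a5 were below the filter. The part of this tissue in the fall of Igfbp2 was not tested.

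**Figure D4:**
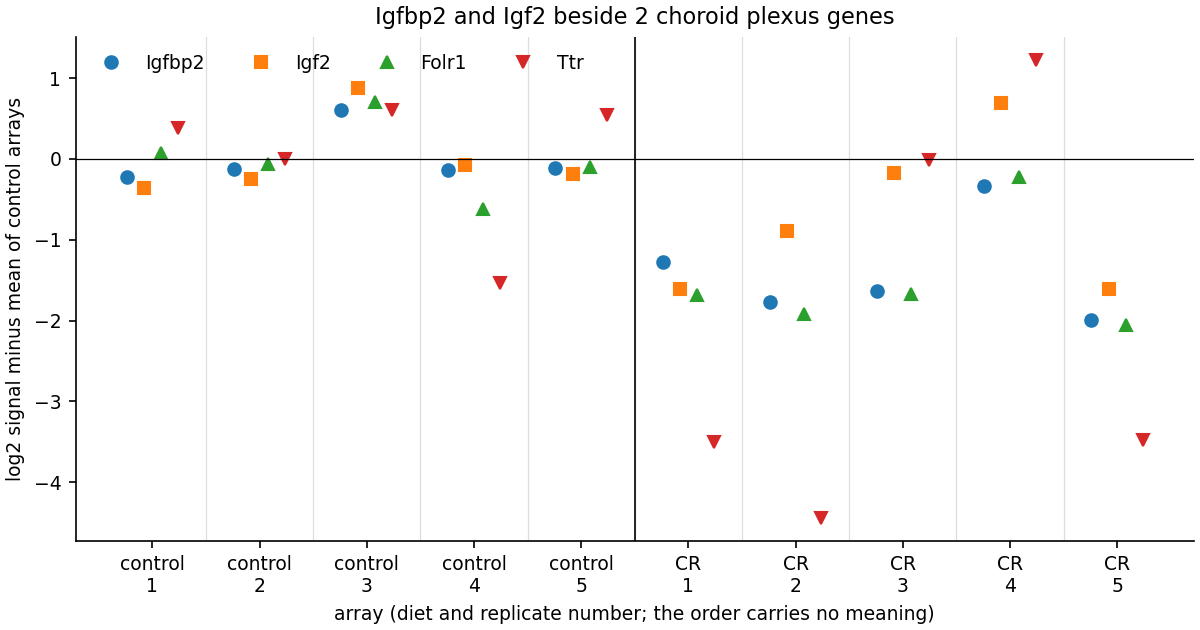
Log2 signal of Igfbp2, Igf2 and the choroid plexus genes Folr1 and Ttr in each array, minus the mean of the control arrays for that gene. All 4 are above the control mean in control replicate 3; among calorie restricted arrays each is highest in replicate 4, and Igfbp2 and Folr1 are below the control mean in all 5.

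Other cell types that make these genes gave a mixed picture. Of 9 astrocyte markers tested, 4 fell and 0 rose in limma (unadjusted p under 0.05 in 0 higher and 5 lower), with a median of -1.24. Fgfr3 and Atp1b2, 2 of the 4, had a CR mean below the lowest tested mean and entered the test through their control arrays. With RNA quality as a covariate Atp1b2 passed, and Aqp4, Slc4a4 and Fgfr3 did not (limma adjusted p = 0.329, 0.301 and 0.0669). The summed intensity of the astrocyte list, 9242 to 14275 in control and 7662 to 21382 in CR arrays (exact permutation p = 1, adjusted p = 1), held a large part from Gja1. Gja1 alone was at 17520 in CR replicate 5 and had a change of 0.73, opposite in sign to 7 of the 9 markers. Of 11 markers of meninges and fibroblasts 0 passed in limma (unadjusted p under 0.05 in 1 higher and 2 lower), and their sum ran from 10115 to 36955 in control and from 16627 to 61346 in CR arrays. Ptgds made up much of that sum, with 52228 in CR replicate 2, and another probe set of Fbln1 had -1.32 and passed. Among 3 markers of pericytes and smooth muscle Rgs5 fell by 1.33 (SE 0.28, limma adjusted p = 0.0176), and the sum was 674 to 1674 against 507 to 779. The Rgs5 call was lost when the model included RNA quality (limma adjusted p = 0.112). Of 9 microglial markers Cx3cr1 and Cd68 fell and 7 did not pass, and neither call held once RNA quality entered the fit (limma adjusted p = 0.0587 and 0.118). Aif1, another microglial marker, had a control mean below the lowest tested mean and entered the test through its CR arrays. Its change was 1.16 with no overlap between diets (limma adjusted p = 0.0520). It passed under quantile normalization and centring, and these values are given as a description only. Interneuron markers rose in 3 of 9 in limma, namely Npy, Slc32a1 and Pvalb (unadjusted p under 0.05 in 5 higher and 1 lower). Another 3, Calb2, Reln and Lhx6, had negative changes of -0.60, -0.57 and -0.23 and did not pass. After RNA quality was accounted for, Npy passed (limma adjusted p = 0.0224). Slc32a1 and Pvalb then did not (limma adjusted p = 0.0985 and 0.0987), and Pvalb did not pass under quantile normalization either. The sum of the interneuron list, 18680 to 29413 in control and 36261 to 42380 in CR arrays, did not overlap (exact permutation p = 0.00794, adjusted p = 0.0291). Of 8 oligodendrocyte markers Cldn11, Mal and Ugt8a fell, with a list median of -0.71. Ugt8a had a CR mean below the lowest tested mean, and 3 other probe sets of Mobp were called. Cldn11 kept its call in the model that included RNA quality (limma adjusted p = 0.0216). Mal and Ugt8a lost theirs there (limma adjusted p = 0.0555 and 0.366). Of 7 principal neuron markers Neurod6 fell by 1.26 (SE 0.34, limma adjusted p = 0.0345). The sums of markers of endothelium, oligodendrocytes and principal neurons overlapped between diets (exact permutation p = 0.635, 0.683 and 0.0952). The part of these cell types in the rise of Igfbp6 was not tested.

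Within each diet, with the diet means taken off, Igf2 and Igfbp2 varied together over the 10 arrays by Pearson's r of 0.78 (exact permutation within diets, p = 0.0169, adjusted p = 0.245 over 28 pairs of tested probe sets) but not by rank, with a Spearman's rho of 0.45 (exact permutation p = 0.281, adjusted p = 0.825). Without control replicate 3 and CR replicate 4 the r was 0.044, so the relation rests on those 2 arrays. No pair of the 28 passed after adjustment. Likeness within diets is given by Pearson's r over 10 arrays, as a description. For Igfbp2 the most alike probe sets were those of Folr1 at 0.92, Ifrd2 at 0.90 and Nfkbib at 0.90 (Spearman's rho 0.66, 0.78 and 0.81). For Igfbp6 they were Nfix, Spock1 and Cds2, each at 0.93. For Igf1 they were Lsr, Sidt2 and Tpm3, from 0.93 to 0.94, and for Igf2 Map3k11, Atp6v0e and Kank3, from 0.88 to 0.92. Igf1r was most like Tpm2 at 0.95 and Igf2r most like Ube2d3 at 0.96. These likenesses are over arrays that differ in RNA quality, and its part in them was not tested.

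Downstream and neighbouring genes of the pathway, 77 in 4 lists, had a probe set for 52 and 35 were tested. Of these 35, 0 rose, 3 fell and 32 did not pass in limma (unadjusted p under 0.05 in 3 higher and 11 lower), and the median change was -0.18, near that of all tested probe sets. Ghr, the growth hormone receptor that drives Igf1 transcription in liver, had 171, 175, 242, 161 and 162 in control and 85.8, 106, 81.9, 81.8 and 86.1 in CR replicates 1 to 5. The diets did not overlap, and the log2 change was -1.03 (SE 0.27, limma adjusted p = 0.0327). All 5 CR values lay below the lowest tested mean of 115, so Ghr entered the test through its control arrays, and its call and size are given as a description. Foxo4, a forkhead factor that Akt holds out of the nucleus, fell by 0.77 (SE 0.21, limma adjusted p = 0.0366), with 1730 to 2396 in control and 808 to 1629 in CR mice. Bad, a pro-death protein that Akt inactivates, fell by 0.78 (SE 0.19, limma adjusted p = 0.0259), with 522 to 729 in control and 319 to 507 in CR mice; another Bad probe set had -2.02 and did not pass. None of the 3 calls held without CR replicates 3 and 5 or without any 1 of control replicates 2, 3, 4 and 5 and CR replicates 3 and 4. None held with RNA quality as a covariate either (limma adjusted p = 0.149 for Ghr, 0.211 for Foxo4 and 0.143 for Bad). Calls also fell over the whole array, from 883 of 7453 probe sets to 783 without CR replicates 3 and 5. Without control replicate 2, 3, 4 or 5 they were 253, 274, 301 or 553, and 349 or 561 without CR replicate 3 or 4. Without CR replicate 2, 5 genes fell and 1 rose, and with arrays centred on their median 0 fell and 2 rose, Foxo3 and Mtor.

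By branch, the list of ligands and binding proteins had 2 genes tested, Ghr and the IGF binding protein protease Htra1, which had -0.45 (SE 0.16, limma adjusted p = 0.0861). Ins2, Igfbp1, Igfbp3 and Igfbp7 were below the filter. Of 12 substrates, adaptors and brakes 0 passed in limma (unadjusted p under 0.05 in 1 higher and 3 lower), and another probe set of the docking protein Gab1 had -1.35 and passed, while its brightest had -0.074. The adaptor Grb2, the brightest of the list, had -0.87 (SE 0.36, limma adjusted p = 0.123). Grb2 was at 365 and 324 in CR replicates 3 and 5, the 2 arrays of lowest RNA quality, against 931 to 1533 in control mice. Irs2, a second insulin receptor substrate, had -0.086 (SE 0.75, limma adjusted p = 0.949) and the brakes Socs1 and Socs2 had -1.37 and -0.52 (limma adjusted p = 0.0839 and 0.127). Of 18 genes of the PI3K and Akt branch the 2 that fell are Foxo4 and Bad. Akt1 had -0.32, Akt2 -0.27 and Pdpk1, which activates Akt, -0.32, and none of these passed (limma adjusted p = 0.514, 0.774 and 0.207). Mtor had 0.68 (limma adjusted p = 0.0822), while another of its probe sets had -0.66 and passed. Gsk3a, the brightest of the branch, had 0.47 (SE 0.29, limma adjusted p = 0.284). Of 3 genes of the Ras and MAP kinase branch 0 passed in limma (unadjusted p under 0.05 in 0 higher and 1 lower). Map2k1 had -0.62 (SE 0.26, limma adjusted p = 0.128). With RNA quality as a covariate Map2k1 had -1.05 and passed (limma adjusted p = 0.0463).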

How the data were processed

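Hippocampal RNA of 10 mice was extracted with Trizol and hybridised as biotin-labelled cRNA to Affymetrix arrays, per the labels' protocols. The authors deposited 1 intensity per probe set and array on a linear scale. The submitters' processing notes name MAS5 as the tool, without a version. In the deposited intensities the mean without the lowest and highest 2% was 500 on each array, so overall brightness had been equalised. Scanner output was not used here.

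Intensities under 1 (41 of 124880) were set to 1 and taken to log2. The 66 control probe sets were left out, as were the dimmest 40% of probe sets by mean log2 signal, which left 7453. Diets were compared with limma 3.58.1 in R 4.3.3 (lmFit and eBayes with a variance trend), with Benjamini-Hochberg adjustment over the 7453. Names came from the platform annotation, with symbols updated through RefSeq gene numbers. A gene in a list is given by its tested probe set with the highest mean. The rule named every member and its probe sets, every pathway gene that passed, the brightest of each list, and the 3 most similar genes of each member; other genes named were chosen after their values were seen. Array measures were compared by exact two-sided permutation over samples. Members and lists were chosen with earlier results of these data known. Tested on simulated data for calorie restricted against control (7453 probe sets, 50 changed per size), limma recovered 4% of changes of 0.5 (log2), 36% of 1, 86% of 2 and 92% of 3. Same-numbered arrays of the 2 diets deviated from their group means with correlations of -0.076 to 0.17, so the numbers were not taken as pairs. The number of arrays limits the precision.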

Additional observations from a re-analysis of the deposited data

Results flagged for a closer look

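In 4 of 32 groups of 5 arrays examined, 1 array stood far from the rest by the ratio of its gap to the whole range on the log2 scale; chance gives about 1 such group in 20. Control replicate 3 stood apart for Igf2, at 5321 against 2248 to 2740 in the other control arrays (ratio 0.770). It also stood apart for Igfbp2, at 1610 against 906 to 977 (ratio 0.868), and for Ghr, at 242 against 161 to 175 (ratio 0.793). CR replicate 2 stood apart for Ghr, at 106 against 81.8 to 86.1 (ratio 0.803). Without control replicate 3 Igfbp2 had -1.25 and passed (limma adjusted p = 0.0472).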

How the results depend on the processing

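Igfbp2 passed in 19 of 21 alternatives and Igfbp6 in 16 of 21. With RNA quality as a covariate Igfbp2 had -1.04, Igfbp6 2.53 and Igf1 0.039, and 0 members were called higher and 0 lower in limma, with 2 and 2 at an unadjusted p under 0.05. With spike-in signal added Igfbp2 had 0.40, Igfbp6 4.23 and Igf2 1.57, and 0 and 0 members were called, with 1 and 0 at an unadjusted p under 0.05. With single arrays left out 0 to 1 member was called higher and 1 lower; Igfbp6 had 1.88 to 2.70. Igf1r had 0.039 with arrays centred on their median. Probe set 94222_at of Igfbp4 had 0.13 under quantile normalization, 0.18 with centring, 0.063 with array weights, 0.11 with RNA quality, 0.63 with both covariates, 0.044 without CR replicates 3 and 5, and -0.12 to 0.079 with 1 array left out. Its 101571_g_at had 0.83, 1.28 and 0.19 with RNA quality, with both covariates and without CR replicates 3 and 5. The replicate block left Igfbp2 at -1.40 and Igfbp6 at 2.28, both past the threshold, and 0 of the 3 pathway genes that fell passed, with 9 lower at an unadjusted p under 0.05; no number's own partner was its best match. Pathway genes called lower were 1 under quantile normalization (Foxo4), 0 with centring, 1 with RNA quality (Map2k1) and 0 with both covariates. They were 0 without CR replicates 3 and 5 (10 at an unadjusted p under 0.05) and 0 to 5 with 1 array left out. Map2k1 is not among the 3 pathway genes that fell, and none of those 3 passed with RNA quality. Pathway genes called higher were 2 with centring and 0 to 1 with 1 array left out. The causes were not tested. In simulated data 36% of changes of 1 on the log2 scale were recovered, with noise independent between probe sets and equal in both diets. That share need not hold for these arrays, and smaller differences in the ligands and receptors could be missed at 5 arrays per diet.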
